A study of Mus musculus with 6 samples.

Results

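The La protein family of the mouse, Larp1 and its relatives Larp1b, Larp4, Larp4b, Larp6, Larp7 and Ssb, was examined for ATF4 binding in mouse embryonic fibroblasts (MEFs). The 7 genes were followed by name through 4 annotated peak lists, and every peak assigned to a member was kept, whatever its distance from the gene. In all, 9 of 17462 listed peaks were named for the family. They fell on 3 genes, with 5 peaks named for Larp1, 3 for Larp4b and 1 for Larp6. Larp1b, Larp4, Larp7 and Ssb had no peak in any list. In single lists, a peak at any distance was named for 8.56% to 18.3% of all protein-coding genes. No such share is given over the 4 lists together, so no excess or lack was read from 3 of 7 genes. Only Larp1 had a peak within 5 kb of a transcription start site (TSS), and it had such a peak in both lists from WT cells and in neither list from GCN2 KO cells.

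ATF4 was immunoprecipitated with the antibody sc-200 from WT and GCN2-/- primary MEFs of the strain 129S6/SvEvTac, and the bound DNA was sequenced (ChIP-seq). Cells were grown in DMEM with leucine (+Leu) or without it (-Leu) for 24 h, so that WT +Leu and WT -Leu stood beside GCN2 KO +Leu and GCN2 KO -Leu. Each group was 1 library, for which chromatin of 2 experiments was pooled (5 or more replicates in each). Groups could therefore not be tested against each other. Input DNA of leucine-fed cells of the same genotype was the control for both media.

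A listed peak is a window of 301 bases (150 bases on either side of the summit) with a score given by the authors. Scores are whole numbers from 13 up, are not normalized between libraries and come without sequencing depth, so their precision is unknown and a missing peak says only that none was listed. WT cells gave 4850 peaks with leucine and 6374 without it, and GCN2 KO cells gave 3566 and 2672. Median scores lay between 29 and 30 in all 4 lists. The top score was 1499 in WT +Leu and 2628 in WT -Leu, and 391 and 353 in the KO lists. The lists hold no reads, so neither the deletion of the GCN2 gene (Eif2ak4) nor the cell type could be checked against them.

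Proteins of the La family bind RNA through a La motif and an adjoining RNA recognition motif. LARP1 recognizes the cap and the terminal oligopyrimidine (TOP) tract with which mRNAs of ribosomal proteins and translation factors begin, and it holds these mRNAs back from translation when mTORC1 is inactive. ATF4 is a basic leucine zipper factor that is made when the kinase GCN2, activated by lack of an amino acid, phosphorylates eIF2α. It binds with C/EBP proteins to the composite motif TGATGCAA in genes for amino acid synthesis, amino acid transport and tRNA charging.

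The Larp1 sequence is shown because it is the only stretch of the family at which a promoter peak was listed. The WT +Leu window was chr11:58008523-58008823 and the WT -Leu window chr11:58008572-58008872 (mm10). The 252 bases that lie in both, chr11:58008572-58008823, read on the plus strand as follows, with the composite motif in capitals (it lies on the minus strand and so appears as its reverse complement).
Larp1 shared window: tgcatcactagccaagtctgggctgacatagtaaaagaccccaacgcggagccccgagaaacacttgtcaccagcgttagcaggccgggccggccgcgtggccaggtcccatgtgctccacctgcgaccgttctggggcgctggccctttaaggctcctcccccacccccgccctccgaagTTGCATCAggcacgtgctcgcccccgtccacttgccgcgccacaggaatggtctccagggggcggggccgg

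Read on the minus strand, chr11:58008727-58008786, the motif stands in its own orientation.
Larp1 motif, minus strand: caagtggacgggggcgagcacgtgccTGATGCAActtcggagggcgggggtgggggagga

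The motif occupied chr11:58008753-58008760, from -311 to -304 bp relative to the TSS of the curated transcript NM_028451 at chr11:58009064. The study's own primers for ChIP followed by quantitative PCR at Larp1 addressed the same bases. Their sequences matched the reference at chr11:58008633-58008765 for the first pair (133 bases amplified) and at chr11:58008680-58008763 for the second (84 bases). Both products lay wholly inside both peak windows. By that assay the study reported more ATF4 at the Larp1 promoter without leucine in WT MEFs, a rise it described as largely blunted in GCN2 KO MEFs. Its statistics for the assay, made at the Larp1 and Ddit3 promoters, also gave a significant rise in GCN2 KO cells. They gave no significant difference between WT and GCN2 KO cells with leucine. In ATF4 KO MEFs the study reported that the rise at Larp1 was abolished. The assay used another ATF4 antibody, MEFs from ATCC and an earlier time besides 24 h. In its ChIP-seq the study saw no significant increase at Larp1 after 24 h. The reverse primer of each pair contained the motif, shown in capitals.
Larp1 pair 1 forward: cacttgtcaccagcgttagc
Larp1 pair 1 reverse: gtgccTGATGCAActtcgga
Larp1 pair 2 forward: ccatgtgctccacctgcgacc
Larp1 pair 2 reverse: gccTGATGCAActtcggaggg

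**Figure D1:**
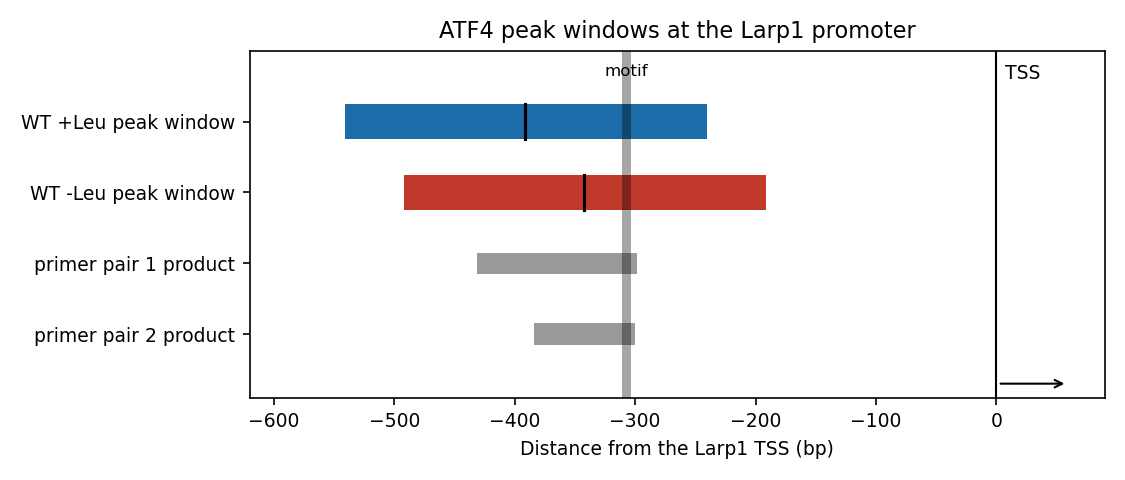
ATF4 peak windows at the Larp1 promoter, plotted by distance from the curated TSS in bp, with the center of each window as a black line, the TGATGCAA motif as a grey band and the products of the 2 primer pairs as grey bars. The WT +Leu and WT -Leu windows overlap by 252 bases and both hold the motif, which lies nearer to the center of the WT -Leu window.

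At the Larp1 promoter the WT +Leu peak was centered at -391 bp with a score of 80, and the WT -Leu peak at -342 bp with a score of 65. The centers were 49 bp apart and the windows covered 350 bases in all, so the peaks counted as a common site (centers 300 bp or less apart). It was the only site of the family common to any of the pairs of lists. Over all genes, 63 had a common promoter site in WT cells, where 251 (+Leu) and 435 (-Leu) promoter peaks were listed. The share of all peaks with a common site is not given, so nothing about the family was read from this count. The score was lower without leucine than with it, at 0.813 times its size. As the scale of the score is not stated and the depth of the libraries is unknown, this ratio is one of scores and not a fold of binding. In the GCN2 KO lists the nearest peak to this site lay 175734 bp (+Leu, named for Hand1, score 27) and 282375 bp (-Leu, named for Sap30l, score 41) away.

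The Larp1 promoter peak stood higher in the WT +Leu list than in the WT -Leu list. In WT +Leu it ranked 122 of 4850, and 97.4% of the peaks scored lower. In WT -Leu it ranked 930 of 6374, and 85.1% scored lower. The list from leucine-deprived cells held far more high scores: 124 WT +Leu peaks reached 80 against 765 in WT -Leu, and in KO cells 40 did with leucine and 18 without it. The peak at rank 122 scored 80 in WT +Leu but 422 in WT -Leu, and 51 and 50 in the KO lists with and without leucine. Among promoter peaks (those with a promoter annotation, or centered no more than 1 kb from a TSS), Larp1 ranked 39 of 251 in WT +Leu and 143 of 435 in WT -Leu, where the median promoter scores were 30 and 38. Its score thus lay above the median of promoter peaks in both lists.

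**Figure D2:**
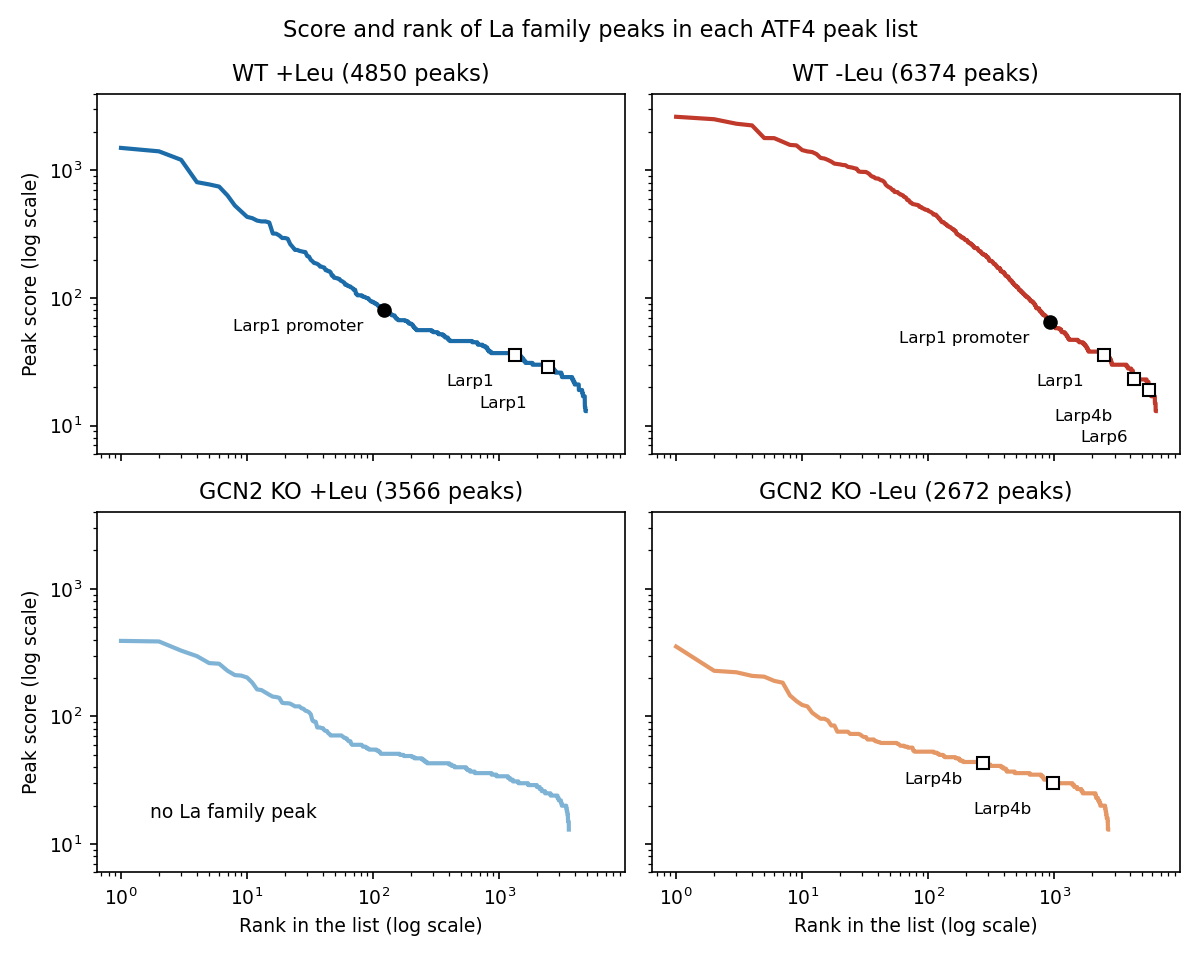
Peak score against rank in each of the 4 lists (both axes logarithmic), with the Larp1 promoter peaks as filled circles and all other La family peaks as open squares. The Larp1 promoter peak sits at rank 122 in WT +Leu and at rank 930 in WT -Leu, and no family peak is listed in GCN2 KO +Leu.

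Both Larp1 promoter windows were rich in G and C. The authors listed a GC content of 67.4% in WT +Leu and 70.4% in WT -Leu, higher than in 99.0% and 99.5% of the peaks of the same list. Against promoter peaks alone, whose medians were 56.8% and 56.5%, Larp1 stood above 86.9% and 95.4%. The WT +Leu window held 23 CpG dinucleotides and the WT -Leu window 32, or 7.67% and 10.7% of the listed positions, against a median of 1.33% in either whole list. Among promoter peaks the CpG medians were 3.0% and 3.67%, and Larp1 stood above 80.9% and 93.3% of them. The promoter itself was richer still. From 250 bases before to 50 bases after the TSS its GC content was 85.3% with 61 CpG dinucleotides, higher in GC content than 99.9% of the 21263 genes with a promoter in the RefSeq table (median 56.3%). The promoters of the relatives ranged from 54.0% in Ssb to 73.7% in Larp6, with Larp7 at 61.7%, Larp4 at 62.7%, Larp1b at 67.7% and Larp4b at 72.0%.

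**Figure D3:**
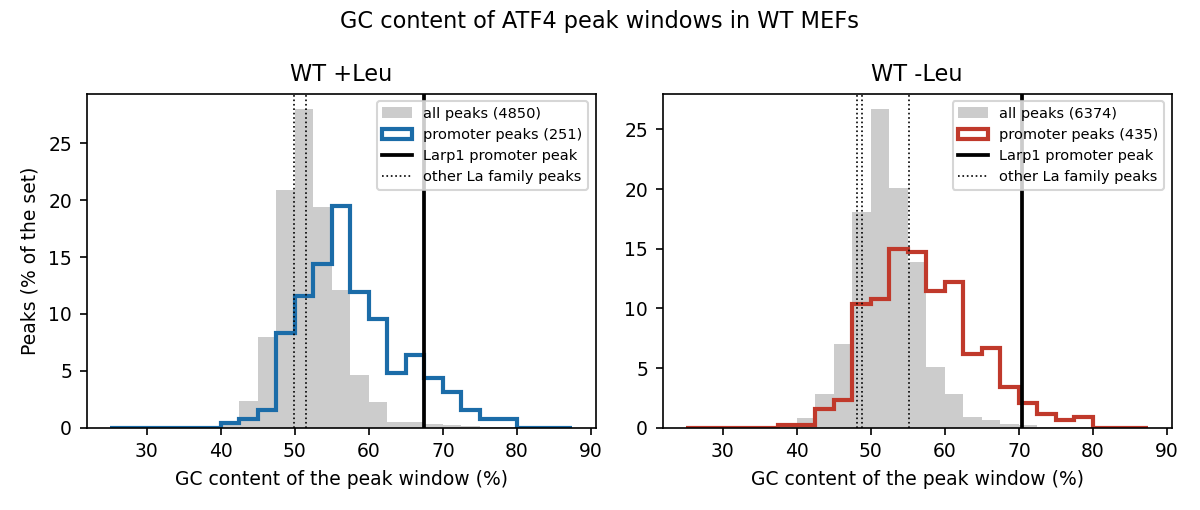
GC content of the peak windows in WT +Leu and WT -Leu, as the percent of all peaks (grey) and of promoter peaks (colored outline) in each bin, with the Larp1 promoter peak as a solid line and the other La family peaks as dotted lines. The Larp1 promoter windows (67.4% and 70.4%) lie in the upper tail, and the other family peaks of these lists lie between 48.2% and 55.1%.

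The motif TGATGCAA, searched on both strands, was found in 16.7% of WT +Leu and 17.2% of WT -Leu promoter peaks, compared with 3.91% and 9.05% of all peaks on assembled chromosomes and 0.895% of the 32851 promoters of 300 bases in the RefSeq table. Promoter peaks with the motif had a median score of 86 (n = 42) in WT +Leu and 160 (n = 75) in WT -Leu, against 28 and 35 for those without it. Larp1, with 80 and 65, was near the median of the motif class with leucine and below it without leucine: 24 of those 42 promoter peaks and 59 of those 75 scored higher. The Larp1 motif also lay away from the summit. In WT +Leu it was 83.5 bp from the window's center, where the median distance in promoter peaks was 14.5 bp and only 2 of 42 were farther. In WT -Leu it was 34.5 bp from the center, against a median of 11.5 bp, and 15 of 75 were farther.

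Searched within 1 kb of the TSS that the RefSeq promoter table gives for each gene, TGATGCAA was found at Larp1 and at none of the other 6 genes (1543 of 32851 RefSeq promoters hold it in such a window). The same held over all 22 annotated starts of the 7 genes, a search added after the data were seen. With any base at position 6 (TGATGNAA, 23.2% of promoters), Larp7 was added at the table's starts, and Larp1b and Larp4b as well when all 22 starts were searched, both at predicted starts. Larp7 encodes the protein that covers the end of the 7SK RNA, the scaffold that keeps the elongation kinase P-TEFb inactive. Its promoter is shown because it held other motifs of the ATF and CREB factors without a listed peak: TGATGAAA at -545 bp, and the full cyclic AMP response element TGACGTCA at +2 and at -121 bp (in 3.44% of promoters within 1 kb and 1.79% of the 300-base promoters). The Larp7 promoter of the RefSeq table (GRCm38, chr3:127553300-127553599, minus strand) has both TGACGTCA matches in capitals, and a stretch of 40 bases (chr3:127553871-127553910, minus strand) has TGATGAAA in capitals.
Larp7 promoter: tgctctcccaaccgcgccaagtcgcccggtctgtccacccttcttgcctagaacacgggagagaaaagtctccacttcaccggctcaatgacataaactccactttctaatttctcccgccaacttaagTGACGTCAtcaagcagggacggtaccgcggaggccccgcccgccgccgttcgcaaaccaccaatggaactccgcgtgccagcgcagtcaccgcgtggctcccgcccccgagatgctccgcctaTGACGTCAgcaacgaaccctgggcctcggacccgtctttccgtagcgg
Larp7 upstream: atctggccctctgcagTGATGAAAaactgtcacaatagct

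Set against all genes, the share of family members with a peak can be read from 21900 protein-coding genes of the RefSeq annotation. With leucine, a peak at any distance was named for 14.6% of them in WT cells (1 of 7 members) and 11.1% in KO cells (0 of 7). Without leucine the shares were 18.3% in WT cells (3 of 7) and 8.56% in KO cells (1 of 7). Taking WT cells with and without leucine and then KO cells in the same order, the shares within 5 kb of a TSS were 3.03%, 4.4%, 2.26% and 1.61%, and the members with such a peak numbered 1, 1, 0 and 0. With a promoter peak they were 0.977%, 1.66%, 0.749% and 0.498%, against 1, 1, 0 and 0 members. Within 5 kb the only member counted was Larp1, and no excess of the family over the background was read from these counts.

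The 3 remaining Larp1 peaks lay far from the curated TSS. In WT +Leu they were at -20471 bp (chr11:57988443-57988743, score 36, rank 1331) and at -43738 bp (chr11:57965176-57965476, score 29, rank 2429), and in WT -Leu at -53861 bp (chr11:57955053-57955353, score 36, rank 2495). None of them recurred in another list, but the share of all distal peaks that recur is not given here. RefSeq also holds predicted Larp1 transcripts, and XM_017314797.2 starts at chr11:57973418, well upstream of the curated TSS. Relative to that start the peak at -20471 bp lay in intron 1 of 18, 15175 bp into the transcript, and the promoter peaks lay in the same intron. The peak at -43738 bp lay 8092 bp before this predicted start and the one at -53861 bp lay 18215 bp before it. The lists place the peak at -20471 bp in an LTR41 element of the ERVL class and the peak at -43738 bp in a B3 SINE element, and call the peak at -53861 bp intergenic. The only other annotated gene that overlaps Larp1 is the lncRNA Gm51897, and the nearest protein-coding neighbour is Gm12248, 54618 bp from the Larp1 TSS.

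Larp4b, whose protein binds AU-rich mRNA and the poly(A)-binding protein, had 3 distal peaks. In WT -Leu a peak at -17458 bp (chr13:9076297-9076597, in a LINE element) had a score of 23, rank 4264, and 15.5% of the list scored lower. In GCN2 KO -Leu, where only 2 family peaks were listed, both were named for Larp4b. The one at -36597 bp (chr13:9057158-9057458) had a score of 30 and rank 967. The other, at 87111 bp (chr13:9180866-9181166), had a score of 43 and rank 273 and thus exceeded 89.3% of its list. It lay 6565 bp past the end of the gene. No Larp4b site was shared between the WT and the GCN2 KO list, a comparison for which no share over all peaks is given.

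Larp6, which binds the stem-loop of collagen mRNAs, had 1 peak. It was centered 10999 bp past the TSS in intron 1 of 2 (chr9:60723970-60724270, WT -Leu), with a score of 19 and rank 5619, and only 8.28% of the list scored lower. Its GC content of 55.1% was the highest of the 7 distal family peaks, and its 13 CpG dinucleotides were more than in 94.5% of the list.

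Together the 7 distal peaks of Larp1, Larp4b and Larp6 had scores from 19 to 43 with a median of 30, the same as the median of the whole WT lists. Their GC contents ran from 48.2% to 55.1%, below both Larp1 promoter windows. None contained TGATGCAA or TGATGNAA. TGATGCAA was present in 2.93% of WT +Leu, 8.34% of WT -Leu and 1.08% of GCN2 KO -Leu peaks farther than 5 kb from a TSS. TGATGNAA was present in 7.77%, 15.9% and 4.55% of the peaks of these lists at any distance. With shares this low, nothing was read from its absence in 7 peaks. The central 61 bases of the highest-scoring distal peak and of the only intronic peak in a curated transcript are shown (mm10, plus strand) to set beside the Larp1 promoter.
Larp4b, GCN2 KO -Leu, chr13:9180986-9181046: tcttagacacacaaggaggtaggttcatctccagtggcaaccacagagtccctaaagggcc
Larp6, WT -Leu, chr9:60724090-60724150: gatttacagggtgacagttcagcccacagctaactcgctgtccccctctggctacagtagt

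Larp1b, Larp4, Larp7 and Ssb had no peak of their own, and the peak nearest to each TSS was named for another gene. Larp1b, the closest relative of Larp1, had its nearest peak 99.2 kb away in WT +Leu (Pgrmc2, score 29), and the distance was 270.1 kb in WT -Leu, and 653 and 433 kb in KO cells with and without leucine. Larp4, which protects poly(A) tails, had peaks of the neighbour Dip2b at 117 kb in WT +Leu (score 31) and 76.5 kb in WT -Leu (score 37). Its nearest KO peaks were 232 kb (+Leu) and 55.8 kb (-Leu) away. Ssb, the La protein itself, which binds the oligo(U) ends of RNA polymerase III transcripts, had its nearest peak in GCN2 KO +Leu, 36.2 kb away in exon 1 of Ubr3 (score 25). In the other lists the distances of Ssb were 169, 179 and 687 kb.

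Larp7 had the strongest peak near a family member that was named for another gene. In WT +Leu a peak named for Mir302b, a microRNA gene that lies inside Larp7 in the RefSeq annotation, stood 26.5 kb from the Larp7 TSS (chr3:127526681-127526981). Its score of 102 gave it rank 84, above that of the Larp1 promoter peak, but it lay 9883 bp outside the Larp7 gene body, its GC content was 48.2% and it held no TGATGCAA. In WT -Leu the nearest peak lay at 144 kb (score 353). In KO cells it lay at 53.8 kb with leucine (score 31) and at 3107 kb without it. No list had a peak at the Larp7 promoter, whose motifs are printed above.

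Over the 6 relatives the median distance from TSS to the nearest peak was 108 kb with leucine and 110.3 kb without it in WT cells, where the medians over all protein-coding genes in the promoter table were 150.5 and 103 kb. In KO cells it was 442 and 359 kb, against 202 and 263 kb over all genes. A nearer peak than at Larp1 was found for 0.577% of genes in WT +Leu and 1.07% in WT -Leu, and for 46.4% and 51.9% in the KO lists.

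**Figure D4:**
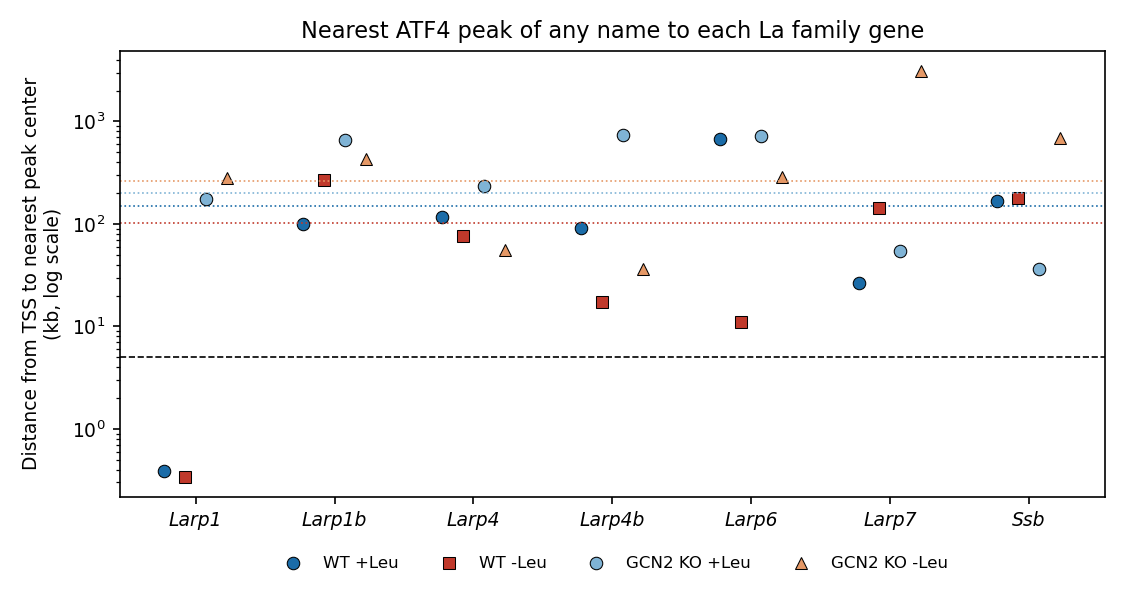
Distance in kb (logarithmic axis) from the TSS of each La family gene to the center of the nearest ATF4 peak of any name in the 4 lists, with the 5 kb limit dashed and the median over all protein-coding genes dotted in the color of each list. Only the WT points of Larp1, at 0.391 and 0.342 kb, fall under the 5 kb line.

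Other regulators of TOP mRNAs were followed as a list of 15 genes that hold the eIF4E-binding proteins, subunits of the cap-binding complex, Tia1, Tial1, Cnbp, Hnrnpd, Pabpc1, Mtor, Rptor, Gcn1 and Eif2ak4. Within 5 kb of a TSS, 1 of the 15 was listed in either WT list, 1 in the KO list with leucine and 0 in the KO list without it. Over all protein-coding genes the shares were 3.03% and 4.4% in the WT lists and 2.26% and 1.61% in the KO lists, so that no excess of the list was read from 1 gene in 15. In each case the gene was Eif4ebp1, the translational repressor 4E-BP1. Its peak in intron 1 of 2 scored 137 in WT +Leu, 500 in WT -Leu and 211 in GCN2 KO +Leu, where it ranked 8. Unlike Larp1, Eif4ebp1 thus had a higher score without leucine, a peak in a list from GCN2 KO cells, and no TGATGCAA in its windows. At any distance the list added Mtor in WT +Leu (score 31, intron 13) and Pabpc1 and Gcn1 in WT -Leu (scores 28 and 23). Of 4 partners of LARP7 in the 7SK particle (Mepce, Hexim1, Cdk9 and Ccnt1), Cdk9, the kinase of P-TEFb, had a peak 1342 bp past its TSS in WT +Leu, and no other peak was named for them. Its score of 27 was below the list's median of 30, and with a peak within 5 kb at 3.03% of all genes in that list, nothing was read from 1 of 4 partners.

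The pattern of Larp1, a promoter peak at a common site in both WT lists and no peak within 5 kb in either GCN2 KO list, was shared by 29 genes, Larp1 included. A further 34 of the 63 genes with a common WT promoter site also had a peak within 5 kb in a KO list. Among the 29 the score was higher without leucine for 25 and lower for 4, namely Larp1, Cars (cysteinyl-tRNA synthetase, from 188 to 151), Ntmt1 (an N-terminal methyltransferase, from 32 to 31) and Bean1 (from 56 to 23), the last 3 named after their values were seen. In WT +Leu 10 of the others scored higher than Larp1, and in WT -Leu 26 did. The motif was in both windows at 19 of the 29 genes and in neither at 9.

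By the distance of the pair of log2 scores, the genes most like Larp1 were Ran, Slc6a9, Bcat1, Sesn2 and Mthfd1l, each compared over the 2 WT libraries only. Ran, the GTPase of nuclear transport, had scores of 49 and 83 and no TGATGCAA. Slc6a9, a glycine transporter, had 69 and 115. Bcat1, the cytosolic aminotransferase of branched-chain amino acids, had 50 and 112. Sesn2, a leucine sensor upstream of mTORC1, had 54 and 138 at its promoter site, and Mthfd1l, a mitochondrial enzyme of formate synthesis, had 58 and 144. All 5 had a higher score in the WT -Leu than in the WT +Leu list, whereas Larp1 had a lower one. The WT +Leu GC content of Larp1 (67.4%) was exceeded at 5 of the 29 genes, where the median was 58.1%: Jdp2 (77.4%), Eprs (73.4%), Phgdh (71.4%), Ran (69.8%) and Mthfd1l (69.1%).

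**Figure D5:**
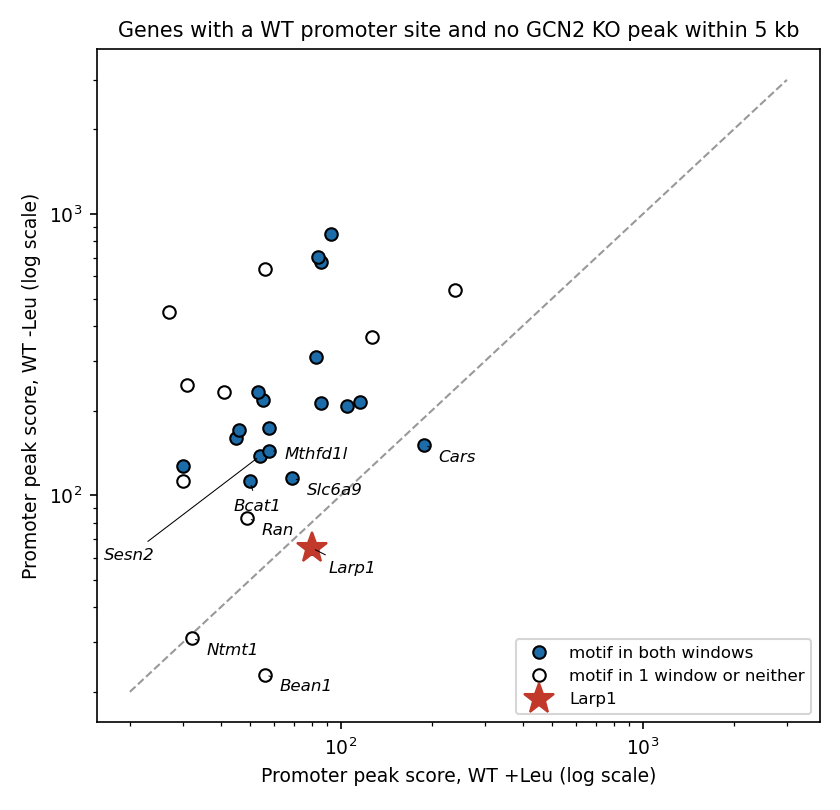
Promoter peak score in WT -Leu against WT +Leu (both axes logarithmic) for the 29 genes with a common WT promoter site and no GCN2 KO peak within 5 kb, with the line of equal scores dashed and genes with TGATGCAA in both windows filled. Larp1 (80 and 65) lies below the line with Cars, Ntmt1 and Bean1, and the other 25 genes lie above it.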

How the data were processed

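ATF4 ChIP-seq peak lists of WT and GCN2 KO MEFs, with 1 library for each of 4 conditions, were used as deposited. The authors sequenced 50-base reads, aligned them to mm10, called peaks with MACS2 against input at a false discovery rate of 0.05 and annotated summit windows with HOMER; the submitters' processing notes name BWA 0.7.12, MACS2 2.1.0 and HOMER 4.7. The deposited columns used were the authors' score, whose scale is not stated, the distance to the TSS in bp, and the share of G and C and of CpG in the window, given by the authors as a fraction. The 2 input libraries and the expression data of the study were not analysed here, and no deposited column of values was left out of use for want of a sample.

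Rows were selected by gene name. Ranks (1 the highest, best rank of ties), shares of the list with a lower score, common sites (centers 300 bp or less apart), motif matches and nearest peaks were computed with Python 3.11.15, numpy 2.4.6, pandas 2.3.3, pysam 0.24.0 and samtools 1.23.1, and plots were drawn with matplotlib 3.10.9. Sequences came from RefSeq and the GRCm38 reference, whose GC content equalled the listed one for all 4839, 6362, 3549 and 2658 peaks on assembled chromosomes. All 7 members were matched to the RefSeq gene and promoter tables, and primers were read from the study's oligonucleotide list. Nearest-peak distances and promoter motifs refer to the start in the promoter table unless another is named, and offsets of listed peaks are those of the lists. The motif and overlap steps were tested on simulated data.

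No test between conditions was made, because each had 1 library. Without counts, no interval or detection floor could be given. The members, the lists of TOP regulators and 7SK partners and the rule for genes named (all members, list genes with a peak within 5 kb, the 5 genes nearest to Larp1 in WT scores) were chosen with earlier results of these data known. Other limits on distance, score, overlap, motif and reference set were tried as alternatives.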

Additional observations from a re-analysis of the deposited data

How the results depend on the processing

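Of 53 alternative values for 26 results, 37 stayed within 1.5 times a count, or within the counting interval of a share, and 16 moved. A ratio was counted as moved if it differed at all. The counting interval was taken over the peaks of a list and does not measure how a rank would vary between libraries. The numbers of members with a peak inside 5 kb (1, 1, 0 and 0) were the same at 1 kb, at 10 kb and among scores of 30 or more, and the Larp1 promoter peaks stayed a common site at 100 bp. The Larp1 peaks lay at -391 and -342 bp, scored 80 and 65 and had centers 49 bp apart. The 1 kb, score and 100 bp limits therefore could not change these results. A count of 0 also stays 0 under any stricter limit, so part of the 37 was fixed in advance. Counted within 5 kb alone, the peaks named for the family fell from 3, 4 and 2 to 1 (WT +Leu), 1 (WT -Leu) and 0 (GCN2 KO -Leu), and a score of 30 or more left 2 in WT -Leu. Counted by gene body and 10 kb on either side they were 5, 2, 0 and 1. The WT +Leu count then added peaks named for Pgrmc2 (near Larp1b) and Mir302b (near Larp7). Within 50 bp of the center, TGATGCAA was found in 0 WT +Leu family peaks. Searching every annotated start of the members, an alternative chosen after seeing the data, raised the genes with TGATGNAA from 2 to 4 and left TGATGCAA and TGACGTCA at 1 gene each. The TOP regulators numbered 2 in WT -Leu at 10 kb. The Larp1 ratio between WT -Leu and WT +Leu, 0.813 by score, was 0.873 by percentile rank and 0.641 over the median promoter score. All of these are below 1 but restate the same scores, so they are not independent results. WT -Leu also held more high scores and a higher promoter median, so neither rescaling could exceed 1. The rank of Larp1 was 2.52% and 14.6% from the top of all peaks and 15.5% and 32.9% from the top of promoter peaks, where its GC content exceeded 86.9% and 95.4% of peaks. No paired analysis was possible because each condition had 1 library and the labels carry no replicate numbers. Depth is not given in the lists, which limits every comparison of scores, peak numbers and missing peaks between libraries.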

Other observations

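The sequence beside the Larp1 motif held a second motif, chosen here after the sequence was seen: the E-box CACGTG at chr11:58008763-58008768, 2 bp from TGATGCAA. E-boxes of this kind are bound by basic helix-loop-helix factors such as MYC and USF. CACGTG was present in 5.93% and 5.38% of WT peaks with and without leucine, in 5.83% and 6.13% of KO peaks, and in 7.15% of RefSeq promoters. Of the 189 WT +Leu and 576 WT -Leu peaks with TGATGCAA, 15 and 32 also held CACGTG in the window. Among promoter peaks alone, the class of the Larp1 peak, CACGTG was present in 8.76% (WT +Leu) and 8.51% (WT -Leu). Of promoter peaks with TGATGCAA, 11 of 42 in WT +Leu and 12 of 75 in WT -Leu also held it. Larp1 was the only gene in either list with both within 10 bp of each other, and 3 of the 294 RefSeq promoters of 300 bases with TGATGCAA held them that close. The limit of 10 bp was likewise set after the sequence was seen.

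The WT +Leu Larp1 window also held a sequence that differs from TGATGCAA by a single base, on the minus strand at chr11:58008571-58008578, 98.5 bp from the window's center on the side away from the full motif. Counted from 1 at the 5′ end of the motif the difference is A8G. The median number of such near matches was 0 per promoter window in both WT lists. The share of promoter windows with a near match is not given, so nothing was read from the Larp1 match. The WT -Leu Larp1 window, which begins 1 base after the first base of this match, held none.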
